A study of Homo sapiens with 24 samples.

Results

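The replication-dependent histone genes were examined by histone type and by genomic cluster in HEK293T cells, a line derived from human embryonic kidney. Members were the genes whose symbol starts with HIST1H, HIST2H, HIST3H or HIST4H in both expression tables, leaving out symbols that end in PS or in PS and digits. Of 58884 genes listed, 89 symbols started this way, 14 of them were left out and 75 remained. By type there were 6 H1, 17 H2A, 22 H2B, 15 H3 and 15 H4 genes. By cluster, 55 lay in HIST1, 15 in HIST2, 4 in HIST3 and 1 in HIST4. In GENCODE 44, 70 of the 75 were protein-coding and 5 carried a pseudogene type (HIST2H2BA, HIST2H2BB, HIST2H2BD, HIST2H3DP1 and HIST3H2BA).

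The study asked how the abundance of SETD2, a methyltransferase of histone H3 that associates with RNA polymerase II, affects gene expression. RNA was measured in 10 libraries of 5 groups, 2 libraries a group. The first table held unmodified cells (WT) and cells with both alleles of SETD2 disrupted (KO). The second table held KO cells, KO cells transfected with full-length SETD2 (SETD2 FL) and KO cells transfected with its C-terminal part, residues 1404 to 2564 (SETD2 C). All 3 groups of the second table carried the disrupted alleles. The constructs were tagged and driven by a CMV promoter, and RNA was taken 72 h after transfection. The labels describe the KO libraries as untreated, so that transfection itself and the construct cannot be told apart in a comparison with KO. Nothing in the labels says that the libraries of a group came from separate cultures, and p-values then measure the spread between these libraries only.

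Canonical histone genes supply the core histones H2A, H2B, H3 and H4, around which DNA is wrapped, and the linker histone H1. They are transcribed mainly in S phase, in clusters, and most have no introns. Their mRNAs end in a conserved stem-loop rather than a poly(A) tail, and the stem-loop is bound by SLBP. Some of these genes also make a longer, polyadenylated transcript that runs past the stem-loop, most of all in cells that leave the cell cycle. The labels name both ribosomal RNA depletion and poly(A) enrichment for the RNA-seq, and how they were combined for these libraries is not given in the sources used here. If poly(A) enrichment was applied, mRNA without a tail was selected against in the values below.

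The stem-loop is the sequence at which the canonical mRNA ends. It was searched in GENCODE 44 transcripts on GRCh38, within 200 bases after the stop codon, on the transcript strand, as a first stem piece GGNNCT that is directly followed by the loop NTTN and then by the second stem piece AGNNCC. It was present in 67 of the 70 protein-coding members and absent from this window in HIST1H2BI, HIST1H3E and HIST1H4L. Among 3988 other protein-coding genes of the chromosomes that hold the members, 2 (0.05%) had a match. The distance from the stop codon ranged from 22 to 67 bases. The core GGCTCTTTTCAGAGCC was shared by 40 members, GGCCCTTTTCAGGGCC by 10, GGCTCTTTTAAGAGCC by 10 and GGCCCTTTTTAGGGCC by 4, and 3 further cores occurred in 1 member each. The 8 sequences here show the core in capitals with 5 bases on each side, for members whose values are described below, and stand for all but 1 of the cores found.
HIST1H1C: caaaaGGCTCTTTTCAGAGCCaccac
HIST2H2BE: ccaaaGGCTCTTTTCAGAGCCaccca
HIST1H2BC: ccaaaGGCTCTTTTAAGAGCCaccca
HIST1H2BK: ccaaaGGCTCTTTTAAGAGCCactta
HIST2H4B: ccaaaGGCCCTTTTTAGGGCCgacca
HIST1H2AG: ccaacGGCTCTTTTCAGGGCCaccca
HIST1H2AK: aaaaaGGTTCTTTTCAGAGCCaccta
HIST2H2AC: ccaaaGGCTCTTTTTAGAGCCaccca

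A transcript annotated to run at least 100 bases past the stem-loop was present for 16 of the 67 members with a stem-loop. These included HIST3H2BB, with up to 4551 bases past it, HIST1H2BN with 3699, HIST1H2BC with 2158 and HIST2H2BE with 1729. HIST1H2BK, which has the same core as HIST1H2BC, had no such transcript, and its annotation stopped 5 bases after the core.

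The promoters of H2A and H2B genes share an octamer, ATTTGCAT, which is known as the binding site of the POU factor POU2F1. RefSeq promoters (GRCh38.p14, 250 bases before to 50 bases after the start site) were at hand for 65 members and were searched on both strands. The octamer was found in 14 of 18 H2B and 11 of 16 H2A promoters, in none of the 6 H1, 12 H3 and 13 H4 promoters, and in 1.77% of all 35116 promoters. Several H2A and H2B genes face each other over one shared promoter, so that 1 octamer can count for both. CCAAT was present in 55 of 65 members against 34.61% of all promoters, and TATAAA in 43 of 65 against 11.53%. Among H4 promoters, CCAAT occurred in 3 of 13, while every H1, H2A, H2B and H3 promoter held it. The octamer windows of 5 H2B genes, all on the minus strand, are shown with the octamer in capitals, because these genes share the element and were not all called. A match is a description of the letters and not of binding.
HIST1H2BC (chr6:26124031-26124060): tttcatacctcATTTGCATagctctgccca
HIST1H2BJ (chr6:27132824-27132853): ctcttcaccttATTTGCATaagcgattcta
HIST1H2BK (chr6:27146886-27146915): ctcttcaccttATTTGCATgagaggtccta
HIST2H2BE (chr1:149886710-149886739): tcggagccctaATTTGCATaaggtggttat
HIST2H2BF (chr1:149812401-149812430): tgcgagtcttcATTTGCATacgggctctat

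The authors deposited TPM, a level per transcript length that is relative to the whole library, and the depth of the libraries is unknown. Replicates of a group correlated across genes at a Pearson r of 0.993 to 0.995 on the log2 scale. SETD2 itself stood at 12.6 and 14.8 TPM in WT and at 16.2 and 16.3 in KO of the first table, a log2 fold change of 0.11 (standard error, SE, 0.08, adjusted p = 0.408, limma). Libraries with the KO label thus did not have less of this transcript, and a direction between WT and KO in these libraries rests on the labels. The paper reports by western blot and ChIP-seq that its KO cells lack H3K36me3, the histone mark that SETD2 makes. In the other table the level of SETD2 was 12.0 and 12.2 TPM in KO, 439 and 422 in SETD2 FL and 1329 and 1264 in SETD2 C. Of 6 HEK293T markers all were above 0, from PAX2, which lay between 0.99 and 2.21 TPM, to VIM, which lay between 444 and 926. Among markers of other cell types, PTPRC (blood), HBB (erythroid) and ALB (liver) stayed at or below 0.38 TPM in all 10 libraries, and COL1A1 (fibroblast) lay between 6.43 and 12.1.

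Members differed widely in level. TPM was 0 in all 10 libraries for 14 of the 75 members and above 0 in all 10 for 35. Within each library the 5 highest members held 62.8% to 70.9% of the summed TPM of all 75. HIST1H2BK, an H2B gene, was the highest member in every library of the first table, with 29.6% to 35.2% of the sum, and HIST2H2AA3, an H2A gene, was the highest in both SETD2 C libraries, with 18.2% and 19.8%.

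The summed TPM of the 75 members was 669 and 715 in the SETD2 C libraries, against 273 and 335 in KO and 251 and 270 in SETD2 FL. The mean with SETD2 C was 691.8 ± 32.4 (SD, n = 2), which is 2.28 times that of KO (303.8 ± 43.6) and 2.66 times that of SETD2 FL (260.4 ± 13.8). Both SETD2 C libraries lay above all others. By type, the ratio of SETD2 C to KO was 2.74 for H1, 2.72 for H2A, 1.93 for H2B, 2.86 for H3 and 1.93 for H4. H3 genes made the smallest sum, at 16.6 and 17.1 TPM with SETD2 C and 5.95 and 5.83 in KO. By cluster the ratio was 1.95 for HIST1, 2.51 for HIST2 and 2.09 for HIST3. These sums and ratios are of TPM as deposited, before the scaling that the comparisons below use. After that scaling the sums of all 75 members were 629 and 669 in SETD2 C, 283 and 350 in KO and 262 and 272 in SETD2 FL. SETD2 C thus stood less far above the other groups than the ratios above say. The sums are dominated by a few genes, and no test was run on them.

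**Figure D1:**
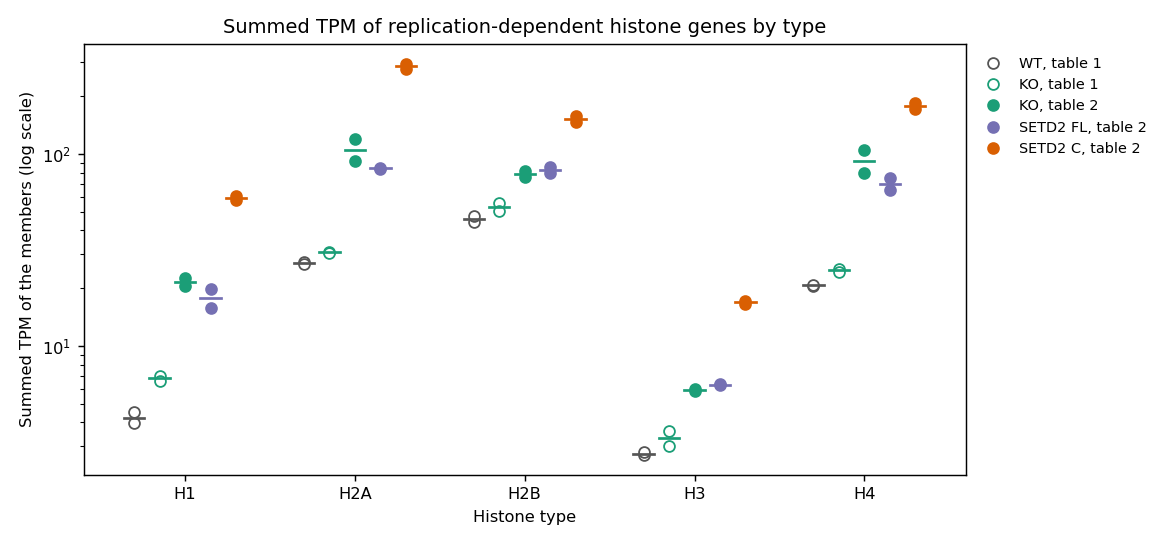
Summed TPM of the members of each histone type in every library, on a log scale, with open points for the first table, filled points for the second and a bar at the mean of 2 libraries. For each of the 5 types both SETD2 C points lie above every other point, and the KO points of the second table lie above those of the first.

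The 2 tables were made separately and were not compared by a test. KO is in both, and its summed TPM was 122 and 115 in the first table and 273 and 335 in the second. The WT sums were 99.3 and 102. H4 genes summed to 25.3 and 24.4 TPM in KO of the first table and to 79.8 and 105 in KO of the second, while H2B genes summed to 55.3 and 50.2 and then to 75.4 and 81.9. The same genotype thus differed between tables by about as much as SETD2 C differed from KO within the second, and the table, the labels' batch, cannot be told apart from other differences between these libraries. All comparisons that follow stay within a table.

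For the comparisons, libraries were scaled by a median of ratios, and log2(scaled TPM + 0.5) was fitted with limma over all protein-coding and lncRNA genes that reached 0.5 TPM in 2 or more libraries. A gene was called when its fold change was 2 or more and its p, adjusted over all genes tested by the method of Benjamini and Hochberg, was 0.05 or less. All fold changes refer to this log2(scaled TPM + 0.5) scale, on which those of weakly expressed genes come out too small. Of the 75 members, 38 passed this filter in the second table, 32 of them also without the SETD2 C libraries and 23 on the KO libraries alone. A member that passed only through the group in which it was high was selected for that level, so that the filter favoured a difference. There were 26 that passed in the first table.

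SETD2 C against KO asks how the abundant, shorter protein changes expression in cells without SETD2. Of the 38 members tested, 13 were higher and 0 lower. Across all 15941 genes tested, 3.76% were called higher and 0.314% lower. Of the 13, 11 passed the filter on the KO libraries alone. HIST2H2BF and HIST1H2AK passed it only through the SETD2 C libraries, where they are high, and so were selected for a difference. At the adjusted p without the fold threshold, 23 members were higher and 0 lower, where 21.1% and 15.1% of all genes were. The median log2 fold change was 0.80 over the members tested and 0.05 over all genes tested, and it was positive in 34 of 38 members. Over the 32 members that passed the filter without the SETD2 C libraries, 11 were called and 18 were higher at the adjusted p alone. The change was positive in 28 of these 32, and their median was 0.76. The 0 lower calls are from limma. The unadjusted p was under 0.05 for 26 members, all with a positive change, and for 21 of the 32, where it was for 47.1% of all genes tested, 27.4% with a positive change.

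**Figure D2:**
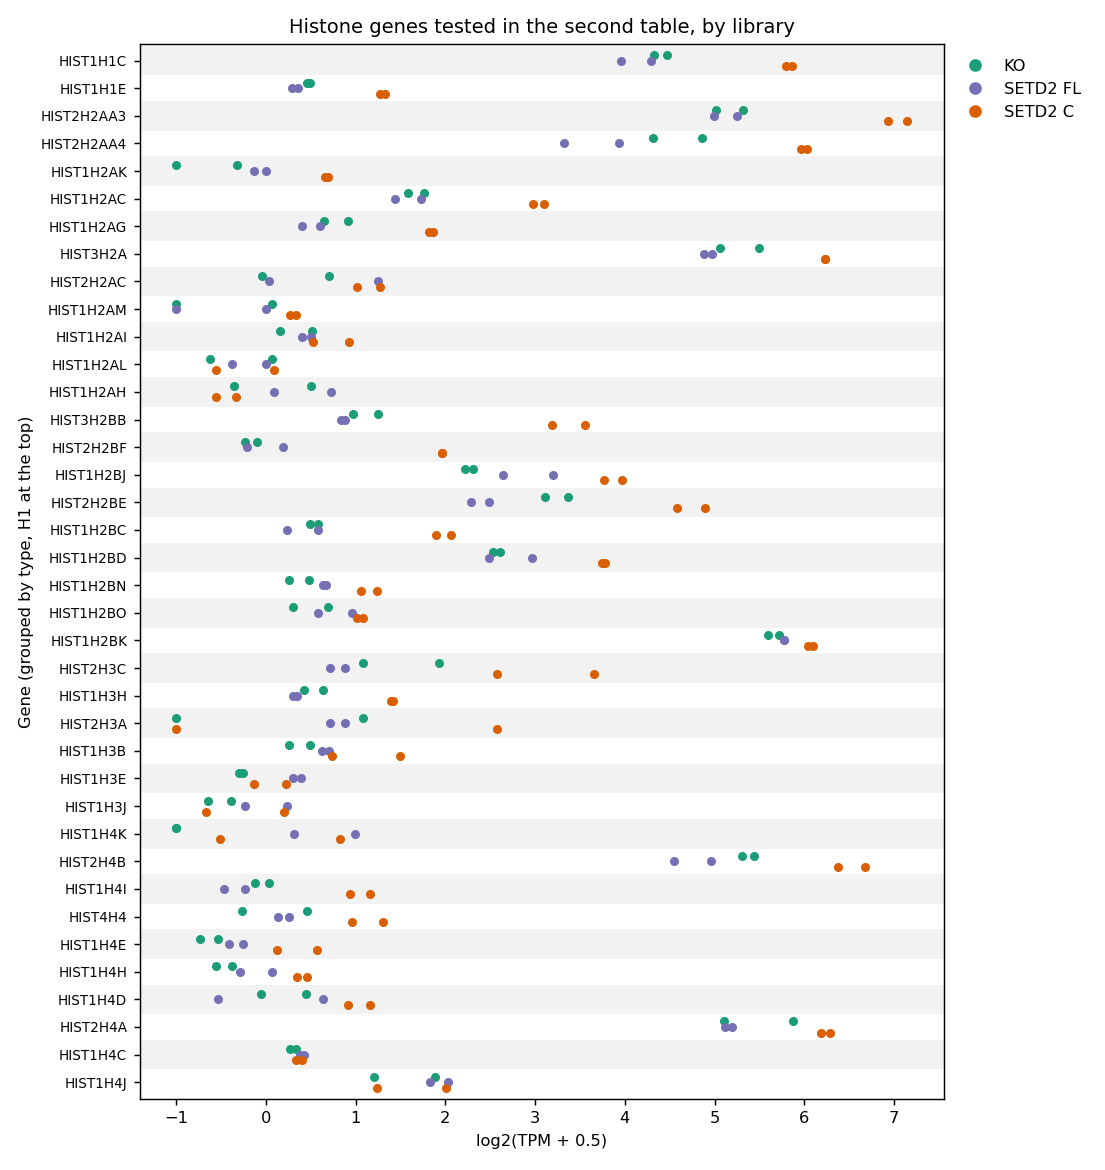
TPM of the 38 members tested in the second table, as log2(TPM + 0.5), 1 row per gene and 1 point per library, for KO, SETD2 FL and SETD2 C with 2 libraries each. SETD2 C points lie to the right of the others for HIST3H2BB, HIST2H2BF and HIST1H1C, and among the others for HIST1H4J and HIST1H4C.

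H2B genes had the most calls, 6 of 9 tested, 1 of them HIST2H2BF. HIST3H2BB (ENSG00000196890, chr1:228458103-228463104, plus strand), an H2B gene of the small HIST3 cluster, stood at 1.46 and 1.88 TPM in KO, 1.29 and 1.34 in SETD2 FL and 8.63 and 11.3 in SETD2 C. Both SETD2 C libraries were above the other 4, and the log2 fold change against KO was 2.13 (SE 0.16, adjusted p = 0.000124, limma). HIST2H2BF (ENSG00000203814) stood at 0.43 and 0.35 TPM in KO, 0.36 and 0.64 in SETD2 FL and 3.41 and 3.40 in SETD2 C. It entered the test only through the SETD2 C libraries and so was selected for a difference, and its log2 fold change of 2.03 is a description.

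HIST2H2BE, an H2B gene annotated with a single transcript that includes the stem-loop and continues past it, had 8.14 and 9.85 TPM in KO, 4.37 and 5.09 in SETD2 FL and 23.5 and 29.2 in SETD2 C. The SETD2 FL libraries were below KO and the SETD2 C libraries above it, with a log2 fold change of 1.35 (SE 0.13) for SETD2 C against KO. HIST1H2BJ had 4.44 and 4.16 TPM in KO, 5.72 and 8.68 in SETD2 FL and 13.2 and 15.1 in SETD2 C, so that its order was KO, SETD2 FL, SETD2 C with no overlap. HIST1H2BC rose from 0.91 and 0.99 TPM in KO to 3.23 and 3.68, a log2 fold change of 1.33, and HIST1H2BD from 5.58 and 5.29 to 12.9 and 13.2, a log2 fold change of 1.05.

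HIST1H2BK (ENSG00000197903, chr6:27146361-27146855, minus strand), the most abundant H2B gene, behaved otherwise. Its TPM was 47.7 and 52.2 in KO, 54.1 and 54.4 in SETD2 FL and 67.8 and 65.7 in SETD2 C. The SETD2 C libraries were still the highest, but the log2 fold change was 0.27 (SE 0.06, adjusted p = 0.0152, limma), below the fold threshold. HIST1H2BN and HIST1H2BO were not called, at log2 fold changes of 0.68 and 0.45. HIST2H2BD, of pseudogene type and therefore outside the fit, had 4.71 and 4.74 TPM in KO, 4.07 and 3.80 in SETD2 FL and 9.49 and 10.7 in SETD2 C.

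Of 11 H2A genes tested, 4 were higher, 1 of them HIST1H2AK. HIST2H2AA3 (ENSG00000203812, chr1:149842218-149842750, minus strand) had 32.0 and 39.4 TPM in KO, 31.4 and 37.6 in SETD2 FL and 122 and 141 in SETD2 C. As listed, KO and SETD2 FL overlapped and SETD2 C stood apart, at a log2 fold change of 1.72 (SE 0.12, adjusted p = 8.44e-05, limma). HIST2H2AA4, also called, is a near-identical copy, so that both calls are not separate. Summed over both copies, KO had 51.3 and 67.9 TPM and SETD2 FL 46.2 and 47.1, without overlap. HIST1H2AC had 2.50 and 2.88 TPM in KO, 2.21 and 2.82 in SETD2 FL and 7.34 and 8.10 in SETD2 C, a log2 fold change of 1.23. HIST1H2AK was at 0 and 0.30 TPM in KO and at 1.11 and 1.08 in SETD2 C, and its log2 fold change of 1.26 is a description, since the gene entered the test only through SETD2 C. HIST3H2A, which is abundant, had 32.8 and 44.6 TPM in KO and 74.5 and 74.8 in SETD2 C and was not called (log2 fold change of 0.81, adjusted p = 0.00308).

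HIST1H2AH was the tested H2A gene with the most negative change. It had 0.28 and 0.92 TPM in KO, 1.15 and 0.56 in SETD2 FL and 0.29 and 0.18 in SETD2 C. KO and SETD2 C overlapped, and the log2 fold change of -0.58 (SE 0.34, adjusted p = 0.210) was not called. HIST1H2AL was at -0.02.

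Of 2 H1 genes tested, HIST1H1C was called. This linker histone gene (ENSG00000187837) had 19.5 and 21.6 TPM in KO, 15.1 and 19.1 in SETD2 FL and 55.0 and 57.9 in SETD2 C, with a log2 fold change of 1.29 (SE 0.10, adjusted p = 0.000155, limma). It has no annotated transcript past its stem-loop. HIST1H1E had 0.90 and 0.87 TPM in KO and 1.91 and 2.01 in SETD2 C, a log2 fold change of 0.72 (adjusted p = 0.0074), and was not called. HIST1H1A and HIST1H1B were at 0 in all 10 libraries.

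H3 and H4 genes had 1 call each, of 6 and 10 tested. HIST2H3C had 1.62 and 3.30 TPM in KO, 1.14 and 1.34 in SETD2 FL and 5.47 and 12.1 in SETD2 C, a log2 fold change of 1.48 (SE 0.36, adjusted p = 0.0161, limma). HIST2H4B had 39.2 and 42.9 TPM in KO, 22.8 and 30.7 in SETD2 FL and 82.4 and 101.6 in SETD2 C, a log2 fold change of 1.0 that lies at the threshold (SE 0.13, adjusted p = 0.00141). HIST1H4C stayed between 0.70 and 0.84 TPM in all 6 libraries, and HIST1H4J had 3.19 and 1.80 TPM in KO and 3.53 and 1.86 in SETD2 C.

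Some calls depended on single libraries. Without KO replicate 4 all 13 calls remained. Without KO replicate 2 the log2 fold changes were 0.91 for HIST1H2AK, 0.99 for HIST2H2AA4, 1.05 for HIST2H3C (adjusted p = 0.076) and 0.93 for HIST2H4B, and none of them was called. Without SETD2 C replicate 2 the values were 0.94 for HIST2H3C and 0.86 for HIST2H4B.

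Several genes have near-identical copies, between which RSEM divides the reads, so that the values of single copies are uncertain. In 4 pairs at least 75% of the 75-base windows, the read length, were shared: HIST2H2AA3 with HIST2H2AA4, HIST2H3A with HIST2H3C, HIST2H4A with HIST2H4B, and HIST1H4J with HIST1H4K. HIST2H3A, for instance, was listed at 1.62 and 0 TPM in KO and at 5.47 and 0 in SETD2 C, and where it was listed at 0 all TPM went to HIST2H3C. Summed, HIST2H3A and HIST2H3C had 3.24 and 3.30 TPM in KO, 2.28 and 2.68 in SETD2 FL and 10.9 and 12.1 in SETD2 C, and the replicates then lay close together. The sum was higher with SETD2 C than in KO at a log2 fold change of 1.54 (SE 0.11, adjusted p = 8.47e-05, limma).

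The sum of HIST2H2AA3 and HIST2H2AA4 was 51.3 and 67.9 TPM in KO, 46.2 and 47.1 in SETD2 FL and 186.6 and 203.3 in SETD2 C, a log2 fold change of 1.57 that was called. HIST2H4A and HIST2H4B together had 73.2 and 100.9 TPM in KO, 57.2 and 66.7 in SETD2 FL and 159.8 and 174.1 in SETD2 C. Their sum was at a log2 fold change of 0.81 (adjusted p = 0.00385), below the fold threshold. HIST1H4J and HIST1H4K together were at 0.30 (adjusted p = 0.341). For HIST1H4K alone both KO values were listed at 0, and no fold is given. HIST1H2AM and HIST1H3J overlap each other and HIST1H2AI shares windows with HIST1H2AJ, so that their values are uncertain too.

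SETD2 C against SETD2 FL compares cells that were both transfected. SETD2 RNA itself was higher in SETD2 C than in SETD2 FL, at a log2 fold change of 1.46 (SE 0.06, adjusted p = 7.11e-06, limma), and its part in the differences was not tested. The paper reports that mRNA of both constructs did not differ significantly in its RNA-seq. SETD2 C holds only part of the coding sequence and TPM is a level per transcript length, so that TPM may not measure both RNAs alike. The SETD2 C libraries are the same as in the comparison with KO, so that the calls of both are not independent. Of 38 members tested, 13 were higher and 0 lower, where 3.37% and 0.42% of all genes were called, and 11 of the 13 passed the filter on the KO libraries alone. HIST2H2BF and HIST1H4I passed it only through SETD2 C and so were selected for a difference. At the adjusted p alone 19 were higher and 0 lower, where 21.4% and 16.8% of all genes were. Of the 32 members that passed without SETD2 C, 17 were higher at the adjusted p alone. For 25 members the unadjusted p was under 0.05, and 24 of these had a positive change. Among the 32 members that passed without SETD2 C the counts were 21 and 20, and 48.8% of all genes had such a p, 27.3% with a positive change. The median log2 fold change was 0.84 over members, 0.86 over those 32 and 0.04 over all genes. By type the calls were 1 of 2 H1, 5 of 11 H2A, 4 of 9 H2B, 1 of 6 H3 and 2 of 10 H4 genes, with HIST2H2BF among the H2B and HIST1H4I among the H4 calls. In all, 10 members were called in both comparisons and 16 in either.

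The largest change was again that of HIST3H2BB, at a log2 fold change of 2.40 (SE 0.16, adjusted p = 6.28e-05, limma). HIST2H2AA4 was at 2.24, HIST2H2BE at 2.23, HIST2H3C at 2.21 and HIST2H2BF, which passed only through SETD2 C, at 1.88. HIST2H2AA3 was at 1.79, HIST2H4B at 1.64, HIST1H1C at 1.58, HIST1H2BC at 1.47 and HIST1H2AC at 1.34. The values of single copies depend on how RSEM divided the reads of each near-identical pair. Summed over the pair, the log2 fold change was 1.92 for HIST2H2AA3 and HIST2H2AA4, 1.9 for HIST2H3A and HIST2H3C and 1.3 for HIST2H4A and HIST2H4B. HIST1H4I, whose value is a description for the same reason as that of HIST2H2BF, HIST1H2AG and HIST3H2A were called here, at 1.32, 1.23 and 1.18, and were under the fold threshold against KO, at 0.99, 0.94 and 0.81. HIST1H2AK, HIST1H2BD and HIST1H2BJ were called against KO and were at 0.66, 0.91 and 0.83 here. HIST1H2BK was at 0.17 (adjusted p = 0.0718). Whether any gene's change differed between both comparisons is the comparison of SETD2 FL with KO, given below.

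By cluster, 6 of the 9 HIST2 genes tested were called in each SETD2 C comparison, and 5 of the 8 that passed the filter without SETD2 C. Of all genes tested, 3.76% were called higher against KO and 3.37% against SETD2 FL. The HIST1 cluster had 6 of 26 calls against KO and 5 of 26 against SETD2 FL (5 and 4 of the 21 that passed without SETD2 C), HIST3 had 1 and 2 of 2, and HIST4H4, the single HIST4 gene, was at log2 fold changes of 0.94 and 0.85 and was not called. The median log2 fold change against KO was 0.73 for HIST1 and 1.27 for HIST2, or 0.70 and 1.14 over the genes that passed without SETD2 C. HIST2 holds 3 of the 4 near-identical pairs, whose members do not give separate evidence. Summed with HIST2H4A, HIST2H4B was at 0.81 against KO and was not called.

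Members were also divided by whether a transcript past the stem-loop is annotated. Of the 16 with such a transcript, 14 were tested, and 8 were higher with SETD2 C than in KO and 7 than with SETD2 FL. Of the 51 with a stem-loop and no such transcript, 23 were tested, and 5 and 6 were higher. Across all genes tested, 3.76% were called higher against KO and 3.37% against SETD2 FL. At the adjusted p alone against KO the counts were 13 of 14 and 10 of 23, where 21.1% of all genes were higher. The median log2 fold changes against KO were 1.03 and 0.71. Among the genes that passed the filter without SETD2 C, 7 of 12 and 4 of 19 were called against KO, and 6 of 12 and 5 of 19 against SETD2 FL. Of the same genes, 11 of 12 and 7 of 19 were higher than in KO at the adjusted p alone, and the medians were 1.02 and 0.70. The tables give 1 value per gene, so that the share of transcripts that end at the stem-loop and past it was not measured, and the difference between these classes was not tested.

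**Figure D3:**
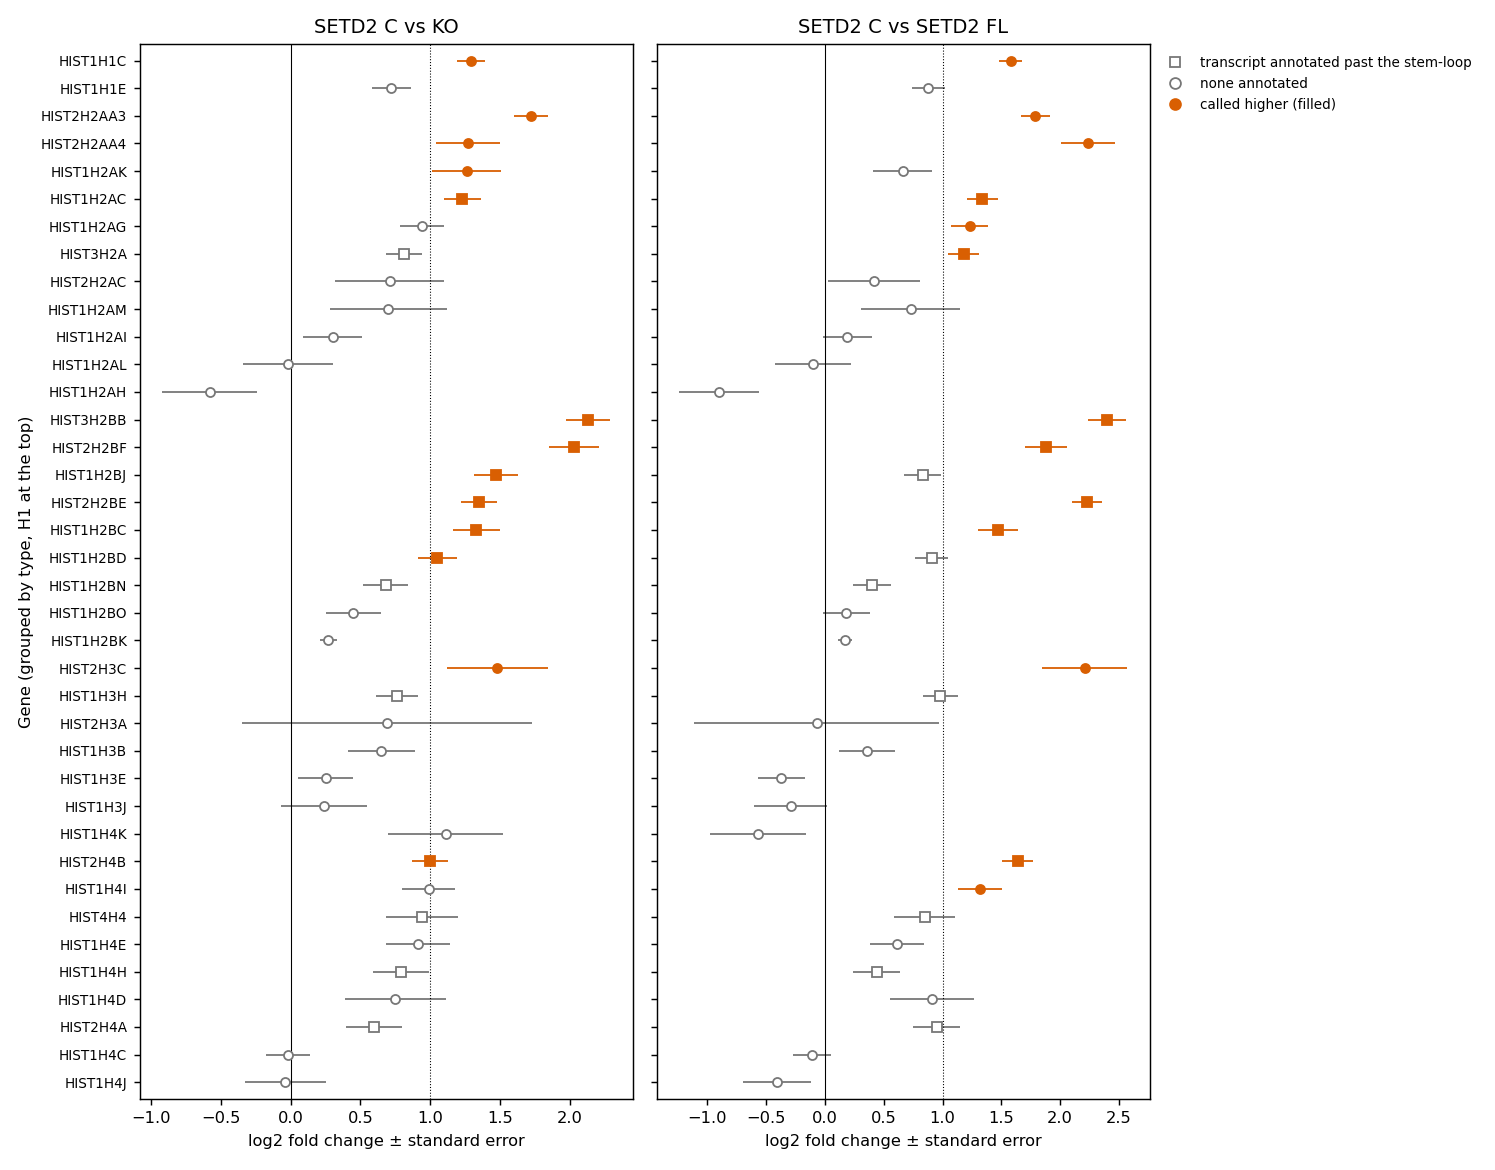
Log2 fold changes of the 38 members tested with standard errors, for SETD2 C against KO on the left and against SETD2 FL on the right, with filled orange marks for called genes and squares for genes with a transcript annotated past the stem-loop. Among the H2B genes in the left panel the 6 called are all squares, 1 of them HIST2H2BF, which passed the filter only through SETD2 C. HIST1H2BN, a square at 0.68, and the circles HIST1H2BO at 0.45 and HIST1H2BK near 0.27 were not called. Called genes of other types include circles, such as HIST1H1C and HIST2H2AA3.

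H2A and H2B genes formed 13 divergent pairs, with start sites 170 to 291 bases apart on opposite strands, over 1 shared promoter region. Among all genes tested, 3.76% were called higher against KO and 3.37% against SETD2 FL. In 7 pairs both genes were tested. Against KO both were higher in 1 pair, HIST1H2AC and HIST1H2BC, at 1.23 and 1.33, and 1 of the 2 genes was higher in 5 pairs, among them HIST2H2AA3, whose partner HIST2H2BD was not tested. For HIST3H2A and HIST3H2BB the log2 fold changes were 0.81 and 2.13, and for HIST2H2AC and HIST2H2BE they were 0.71 and 1.35. HIST2H2AC had 1.13 and 0.47 TPM in KO and 1.92 and 1.52 in SETD2 C, and its standard error of 0.39 was wide. HIST1H2AH and HIST1H2BK were at -0.58 and 0.27, and neither was called. In HIST1H2AK and HIST1H2BN it was the H2A gene, which passed only through SETD2 C, that was called, at 1.26 against 0.68. Against SETD2 FL both genes were higher in 2 pairs, HIST1H2AC with HIST1H2BC and HIST3H2A with HIST3H2BB, and 1 gene in 3 pairs, again with that of HIST2H2AA3 among them.

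**Figure D4:**
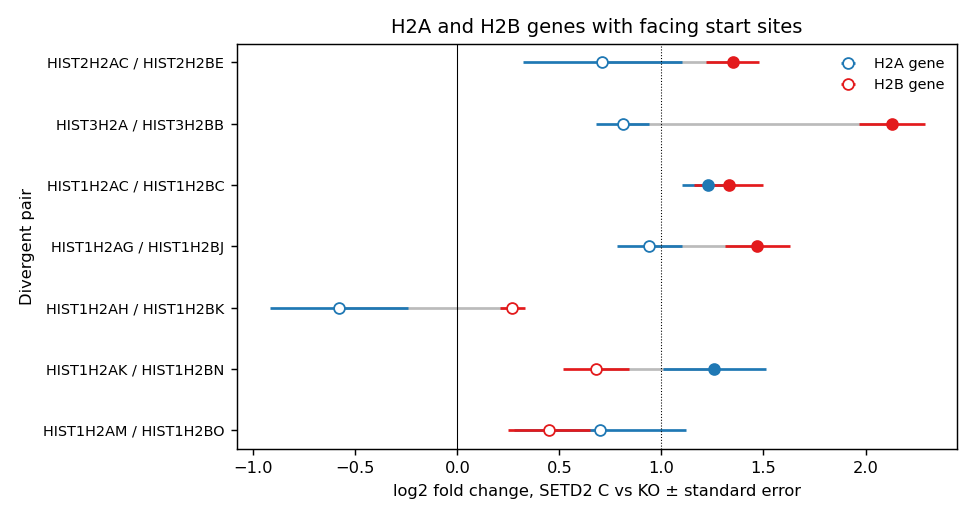
Log2 fold changes of SETD2 C against KO with standard errors for the 7 divergent pairs in which both genes were tested, H2A in blue and H2B in red, filled where called. The points of HIST1H2AC and HIST1H2BC lie together at 1.23 and 1.33, and those of HIST3H2A and HIST3H2BB lie apart at 0.81 and 2.13.

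SETD2 FL against KO asks whether the full-length protein changes expression in cells without SETD2. None of the 38 members was called (0 by limma, also at the adjusted p alone), where 0.0753% of all genes were called higher and 0.00627% lower. The unadjusted p was under 0.05 for 9 members, 4 of them higher and 5 lower, which is to be read against 15.9% of all genes. The median log2 fold change was 0.09 over members and 0.01 over all genes. HIST2H2BE had the smallest p, at a log2 fold change of -0.88 (SE 0.13, adjusted p = 0.0639, limma), with both SETD2 FL libraries below both KO libraries as given above. HIST2H2AA4 was at -0.97 (adjusted p = 0.145) and HIST2H4B at -0.64 (adjusted p = 0.123), and HIST1H2BJ was at 0.64 (adjusted p = 0.156).

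KO against WT compares cells without and with functional SETD2, in the first table. None of the 26 members tested was called, where 0.339% of all 14752 genes tested were called higher and 1.02% lower. The unadjusted p was under 0.05 for 5 members, 4 of them higher, against 24.9% of all genes. The median log2 fold change was 0.11 over members and -0.01 over all genes. HIST1H1C had 4.12 and 3.08 TPM in WT and 6.09 and 6.05 in KO, without overlap, at a log2 fold change of 0.57 (SE 0.19, adjusted p = 0.133, limma). HIST1H4J had 6.25 and 6.48 TPM in WT and 5.25 and 4.02 in KO, at a log2 fold change of -0.55 (adjusted p = 0.0804).

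HIST2H2AA4 had 2.11 and 1.65 TPM in WT and was listed at 0 and 2.28 TPM in KO, and its log2 fold change of -1.08 had a standard error of 0.70. Without KO replicate 2 it was called lower, at -2.28, and without KO replicate 1 it was at 0.13. Summed with HIST2H2AA3, the values were 8.75 and 7.38 TPM in WT and 10.2 and 11.1 in KO (log2 fold change of 0.26, adjusted p = 0.354). HIST1H2BK, the highest member, had 32.3 and 35.9 TPM in WT and 42.8 and 34.0 in KO, and WT and KO overlapped.

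Other genes of histone mRNA biology were taken as fixed lists. Of 44 factors of histone gene transcription and histone mRNA processing, all tested, 1 was called higher with SETD2 C than in KO and 0 lower. Of all genes tested, 3.76% were called higher and 0.314% lower. The median log2 fold change of the factors was -0.07. At the adjusted p alone 7 were higher and 12 lower, where 21.1% and 15.1% of all genes were. The gene called was PCF11, a subunit of the complex that cleaves pre-mRNA for polyadenylation, which had 22.0 and 22.4 TPM in KO, 26.9 and 25.4 in SETD2 FL and 50.5 and 56.1 in SETD2 C (log2 fold change of 1.10, adjusted p = 8.4e-05, limma). SLBP, which binds the stem-loop, had 87.7 and 89.1 TPM in KO and 104.8 and 105.7 in SETD2 C, a log2 fold change of 0.10 after scaling (adjusted p = 0.139). NPAT, the activator of histone gene transcription at the histone locus body, was at 0.16 (adjusted p = 0.220).

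Of 43 S phase genes tested, 0 were called against KO by limma. At the adjusted p alone 6 were higher and 13 lower, where 21.1% and 15.1% of all genes were, the unadjusted p was under 0.05 for 23, where it was for 47.1% of all genes, and the median log2 fold change was -0.10. Cell cycle phase was not measured in these libraries, and in bulk RNA fewer cells expressing a gene and less RNA per cell cannot be told apart. Replication-independent histone variants are made throughout the cell cycle, mostly from polyadenylated mRNA, and H2AFX, in the list, also makes a stem-loop mRNA. Of 19 such genes, 11 were tested in the second table, and 0 were called against KO by limma. The share called over all genes was 3.76% higher and 0.314% lower, so that 0 calls among 11 says little. The unadjusted p was under 0.05 for 4, where it was for 47.1% of all genes. Without the fold threshold, 2 variants passed the adjusted p with a positive change and 2 with a negative one. Against SETD2 FL, 4 variants passed it with a positive change and 2 with a negative one. H1F0, a linker histone gene of this list, had 210.5 and 213.9 TPM in KO, 161.8 and 182.9 in SETD2 FL and 408.3 and 452.2 in SETD2 C, and was called against SETD2 FL (log2 fold change of 1.19, adjusted p = 2.62e-05, limma) and at 0.87 against KO was not. H2AFY2, a macroH2A gene, was at -0.51 against KO (adjusted p = 0.0015). H1F0 was the only gene of these 3 lists called against SETD2 FL, where 3.37% of all genes were called higher and 0.42% lower. None was called by limma for SETD2 FL against KO or KO against WT. In these, 0.00627% to 1.02% of all genes were called in each direction. SETD2 FL against KO had 9 factors, 7 S phase genes and 2 variants at an unadjusted p under 0.05, against 15.9% of all genes. For KO against WT the counts were 8, 10 and 2, against 24.9%. At the adjusted p alone 1 variant was higher in KO than in WT. The lists were not refitted under other scalings, which placed the median of all genes for SETD2 C against KO between -0.03 and 0.18.

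Some markers of the line itself also moved with SETD2 C. KRT8, NEFL and NEFM, 3 of the 6 HEK293T markers, were called higher than in KO, where 3.76% of all genes were. Their log2 fold changes were 1.61, 1.22 and 1.20. VIM, KRT18 and PAX2 were not called, and the smallest change of the 6 was 0.06. COL1A1 was at 0.55 (adjusted p = 0.00787, limma) and was not called. The part of these changes in the histone results was not tested.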

How the data were processed

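The authors aligned paired reads of 75 bases with STAR 2.6.1c to hg38 with Ensembl 96, and estimated TPM per gene with RSEM 1.3.0. The deposited TPM values have 2 decimals and keep no depth, so that counting error is unknown. Counts, on which the authors ran edgeR, and the ChIP-seq samples were not analysed here. Genes were matched to GENCODE 44 (58472 by identifier, 31 by symbol, 25 by older symbol, 356 unmatched), and the 75 members by identifier (70) or older symbol (5). Libraries were scaled by the median of their ratios to the gene-wise geometric mean, taken over genes that reached 1 TPM in all libraries of a table. The fit was on log2(scaled TPM + 0.5), 1 per table, by lmFit, contrasts.fit and eBayes with a trend (limma 3.58.1, R 4.3.3). The procedure was also run on simulated data without a SETD2 FL group, with changes set only in better-expressed genes. The outcome of that run is not given here, and it does not bear on weakly expressed members. With 2 libraries against 2 an exact permutation test cannot go below p = 0.333. Named genes were those called, the 2 most abundant of each type, the 2 largest changes each way in each comparison, divergent partners, and genes of the lists called, with SLBP and NPAT, and others named were picked after their values were seen. The members and lists were chosen with earlier results of these data known. Alternatives were other pseudocounts (0.1 and 1), filters, scalings, gene types and call rules, each library left out, a replicate block and, chosen after seeing the data, near-identical pairs summed.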

Additional observations from a re-analysis of the deposited data

How the results depend on the processing

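The 13 members called higher with SETD2 C than in KO became 23 at the adjusted p alone. Under the other alternatives the count was 10 to 19 against KO and 9 to 17 against SETD2 FL, always higher, and all 13 were kept against KO with a pseudocount of 0.1, without scaling and without the trend. Without scaling the median of all genes moved from 0.05 to 0.18, and 17 members were called. Leaving out each library in turn gave 12 to 15 calls against KO, 13 to 17 against SETD2 FL, 0 to 0 for SETD2 FL against KO and 0 to 1 for KO against WT. The 1 call of KO against WT was HIST2H2AA4, lower, without scaling (-1.01) and without KO replicate 2 (-2.28). Beside the losses given above, HIST1H2AK and HIST1H2BD lost their call against KO with a pseudocount of 1 (0.82 and 0.99) and under quantile normalization (0.95 and 0.97), HIST2H3C with no filter (adjusted p = 0.0757), HIST2H4B with a pseudocount of 1, with all gene types and with only the 2 groups, and against SETD2 FL HIST1H2AG under quantile normalization (0.98) and HIST1H4I with a pseudocount of 1 (0.93). The cause was not tested.

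Of the values of named members over all 4 comparisons and alternatives, 1410 kept direction and side of the threshold, 16 lost and 33 gained a call, and 38 changed sign, all from values that were not called. Those whose values are given above were the following. For SETD2 C against KO, HIST1H4J was at 0.08 without scaling and at 0.30 with pairs summed, and with single libraries left out between -0.42 and 0.34, and HIST2H3A was then between -1.05 and 2.43. Against SETD2 FL, HIST2H3A was at 0.13 with a pseudocount of 1, at 1.90 with pairs summed and between -1.81 and 1.67 with single libraries left out, HIST1H4K between -1.21 and 0.08, and HIST2H2AC between -0.18 and 1.01. For KO against WT, HIST2H2AA4 was between -2.28 and 0.13.

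WT and KO of the first table share the replicate numbers 1 and 2. Deviations of same-numbered libraries from their group means correlated at 0.15 for both numbers, with 2 pairs only, so that they share a number and nothing more is known. With the replicate block 0 members were called. The groups of the second table share fewer than 2 numbers.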
